A study of Mus musculus with 4 samples.

Results

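Calcium, cyclic nucleotides and reversible phosphorylation carry signals from the surface of a neuron to its enzymes and its genes, and their machinery was followed here in the neocortex of mouse embryos without synaptic transmission. The genes were those whose array symbol marks them as calmodulin, calmodulin-dependent kinases, protein kinases C and A, adenylyl cyclases, cyclic nucleotide phosphodiesterases, phospholipases C, calcium release channels, calcium pumps, or catalytic and regulatory subunits of the serine/threonine phosphatases. Of 6856 probes, 86 carried such a symbol, and 74 of these, for 66 of the 6041 genes named on the array, had a value on at least 3 of the 4 arrays. Replicates 2, 3 and 4 all gave a value for 73 of the 74 probes, which stand for 65 genes.

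Each of 4 two-colour arrays set total RNA of a null mutant sample, which the labels describe as synaptically silent, beside RNA of a wild type pool made from 4 biological replicates, with both on the C57BL/6 background and at embryonic day 16. Null RNA was in Cy3 on replicate 1 and in Cy5 on replicates 2, 3 and 4, and for replicate 1 the null source is labelled day 14, against day 16 in its other labels. The mutation is not restricted to a cell type in the labels, the number of embryos behind a sample is not given in the sources used here, and the wild type pool counts as 1 control sample. The values are log2 ratios between the channels, with the log base inferred from their size, and the labels do not say which channel is the numerator. Every sign below is therefore the sign as deposited and cannot be read as higher in null or higher in wild type, and replicates 2 to 4, which run the same way, carry the tests. In dissected tissue, fewer cells of a type and less RNA per cell cannot be told apart. Log ratios hold no levels, so that neither the tissue nor the presence of a transcript could be checked against marker genes.

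In this signalling network, calcium that enters the cell or leaves its stores binds calmodulin, which switches on the calmodulin-dependent kinases and the phosphatase calcineurin. Phospholipase C splits a membrane lipid into IP3, which opens calcium release channels of the endoplasmic reticulum, and diacylglycerol, which activates protein kinase C. Adenylyl cyclases make cyclic AMP, which frees the catalytic subunits of protein kinase A, phosphodiesterases end that signal, and phosphatases remove the phosphate groups that the kinases add. In the developing cortex these routes take part in progenitor division, migration, neurite growth and the response of genes to activity.

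The mean log ratios of the signalling probes were centred near 0, and no probe of the network passed the test after adjustment. That does not show that null and wild type RNA were alike. Over the 73 probes the means on replicates 2 to 4 ran from -1.01 to 0.58, with a median of 0.03, beside a median of -0.02 over all 5720 probes fitted. The furthest means belonged to Itpr3, an IP3-gated calcium release channel, at -1.01 ± 1.21 (SD, n = 3), to Ppp1r13b, a p53-binding protein named as a phosphatase 1 subunit, at -0.59 ± 0.34, and to Pde7b, a phosphodiesterase of cyclic AMP, at 0.58 ± 0.98. The mean of Pde7b rested on replicate 3, at 1.72, beside 0.10 on replicate 2 and -0.07 on replicate 4. Pde7a, a close relative of Pde7b, had 0.48 ± 0.04 and Adcy9, an adenylyl cyclase, had 0.45 ± 0.12.

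With limma, 0 of the 73 probes had an adjusted p under 0.05, against 0% of all probes (0 of 5720). At an unadjusted p under 0.05, 6 of the 73 were listed, or 8.22%, against 9.67% of all probes, so that these genes were listed about as often as any others. Of the 6, 4 were positive (5.61% of all probes) and 2 negative (4.06% of all probes). A single sign on replicates 2 to 4 was seen for 26 probes, or 35.6%, against 33.5% of all probes. That made 15 probes positive on every one of the 3 arrays (20.5%, against 16.3% of all probes) and 11 negative (15.1%, against 17.3%). All 3 were hybridized with the same pool and the same dye assignment, so that an effect of dye and an effect of genotype cannot be told apart. The 95% interval of limma reached, at the median of the 73 probes, 0.40 to each side of the mean, or 1.32-fold. It is not adjusted for the number of probes. Smaller differences were mostly not detectable with this number of arrays, even at an unadjusted p under 0.05. The adjusted test needs larger ones, and on simulated data it found 50% of the 2-fold changes. The simulation held independent errors and no effect of dye or shared pool, so that this share may not hold for the arrays. That 0 probes passed the adjusted test therefore does not exclude differences above 1.32-fold. Without replicate 2, the number at an unadjusted p under 0.05 was 0 of 73, against 4.09% of all probes.

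**Figure D1:**
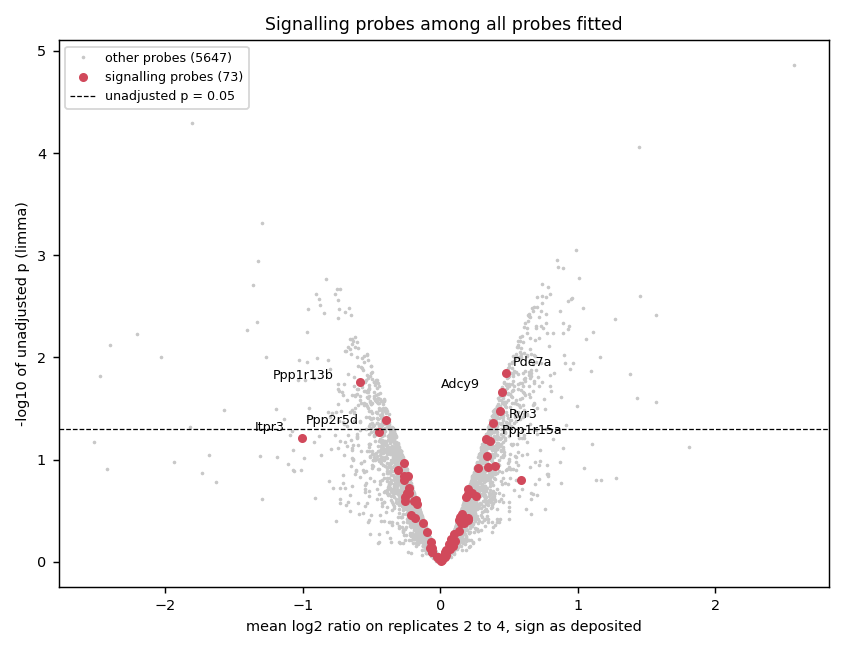
Mean log2 ratio on replicates 2 to 4 (x axis, sign as deposited) and -log10 of limma's unadjusted p (y axis) for the 73 signalling probes (red) and all other probes fitted (grey). The 6 red points above the dashed line, which marks limma's unadjusted threshold, belong to Pde7a, Ppp1r13b, Adcy9, Ryr3, Ppp2r5d and Ppp1r15a. Of the red points, Itpr3 lies furthest left at -1.01.

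On each array the values of the signalling probes spread less than those of the array as a whole. Their SD was 0.35, 0.39, 0.48 and 0.27 on replicates 1 to 4, beside 0.48, 0.43, 0.63 and 0.40 over all probes of the same arrays. Here and in the shares below, all probes means any probe with a value on that array. Only the signalling probes also needed a value on at least 3 arrays. Single values beyond 1 in size were limited to Itpr3 on replicates 2 and 3 and to Pde7b on replicate 3. That was 0, 1.35, 2.74 and 0% of the signalling probes on replicates 1 to 4, against 3.97, 2.73, 7.82 and 1.7% of all probes. For comparison, 78 spots of the glycolytic enzyme Gapdh had an SD between spots of 0.09 to 0.20 within an array.

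**Figure D2:**
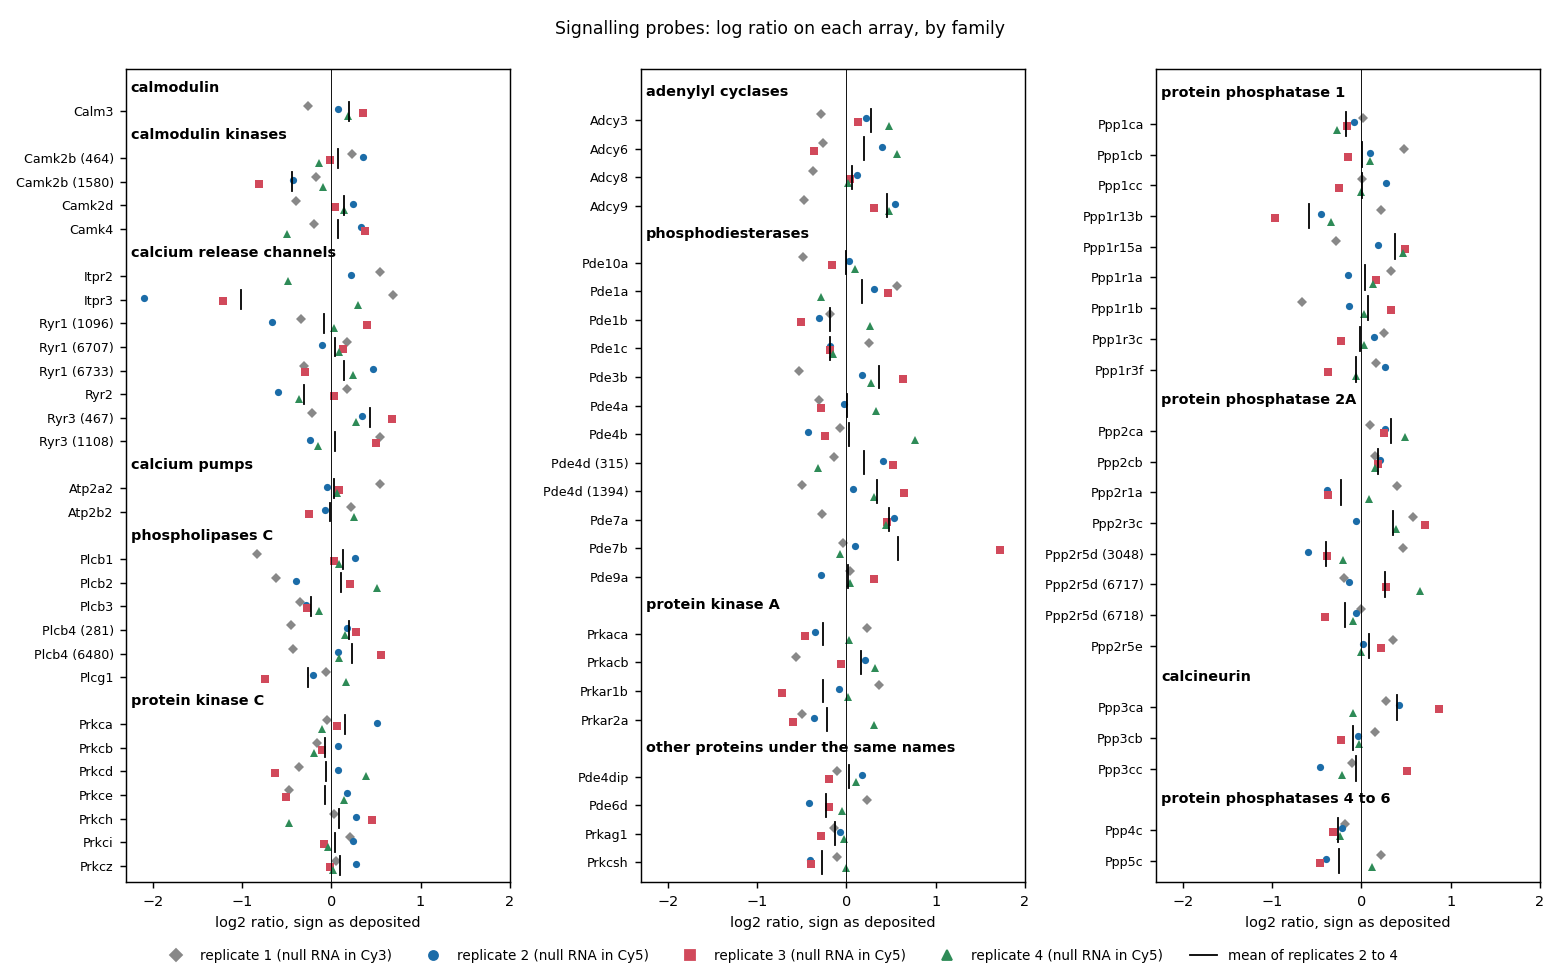
Log2 ratio (x axis, sign as deposited) of each of the 74 signalling probes on each array, by family, with the array's replicate shown by colour and shape and the mean of replicates 2 to 4 by a black bar. Numbers in brackets are probe IDs of genes with several probes. Itpr3 on replicate 2 (-2.10) and Pde7b on replicate 3 (1.72) lie furthest out.

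Calmodulin, the calcium sensor at the head of the route, was measured by a single probe, that of Calm3, with -0.26, 0.07, 0.35 and 0.19 on replicates 1 to 4. All of replicates 2 to 4 were positive, with a mean of 0.20 ± 0.14 (SD, n = 3), and Calm4, a calmodulin-like protein, had no value on any array. Among the kinases that calmodulin switches on, Camk2b, the beta subunit of the abundant synaptic kinase CaMKII, was measured by 2 probes. Its probe 1580 had -0.17, -0.43, -0.81 and -0.09 on replicates 1 to 4, which is negative on every array, averaging -0.44 ± 0.36 on replicates 2 to 4 (adjusted p of 0.522 in limma). Its probe 464 had 0.23, 0.36, -0.02 and -0.14, with a mean of 0.07 ± 0.26, so that the probes differed by 0.79 on replicates 2 and 3 and by 0.04 on replicate 4. Camk2d, the delta subunit of the same kinase, had -0.40, 0.24, 0.04 and 0.14 on replicates 1 to 4, a positive mean of 0.14 ± 0.10. Camk4, a nuclear kinase that phosphorylates the transcription factor CREB, had -0.19, 0.33, 0.38 and -0.50, with no common sign. Camk2a, the alpha subunit that dominates in the mature forebrain, had no value on any array.

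Of the channels that release calcium from the endoplasmic reticulum, Itpr3 held the widest values of the network, and the other probes reached at most 0.68 in size. Itpr3 had 0.69, -2.10, -1.22 and 0.30 on replicates 1 to 4. Only 0.294% of all probes of replicate 2 and 2.03% of those of replicate 3 were as low or lower, whereas 83.9% of the probes of replicate 4 were at or below its value there. Its mean of -1.01 ± 1.21 (SD, n = 3) is 2.01-fold in size, with a 95% interval of -2.08 to 0.07 and an adjusted p of 0.526 in limma. Means beyond 1 in size were found for 54 of all probes, or 0.944%. Itpr2, a further IP3 receptor, had 0.54, 0.22 and -0.49 on replicates 1, 2 and 4, no value on replicate 3, and did not enter the test.

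The ryanodine receptors, release channels that calcium itself opens, gave little common sign. Ryr3, a form expressed at low levels in brain and other tissues, had -0.22, 0.34, 0.68 and 0.28 on replicates 1 to 4 at probe 467, with a mean of 0.43 ± 0.22 (SD, n = 3), an unadjusted p of 0.0333 and an adjusted p of 0.484 in limma. Its other measured probe, 1108, had 0.54, -0.24, 0.50 and -0.15, with a mean of 0.04 ± 0.41, so that both probes were positive on replicate 3 and of opposite sign on the other arrays. Ryr2, the main form of heart and brain, had 0.17, -0.60, 0.03 and -0.36, a mean of -0.31 ± 0.32. Ryr1, the form of skeletal muscle, had means of -0.08 at probe 1096, 0.04 at probe 6707 and 0.14 at probe 6733, and its probes lay up to 1.14 apart on replicate 2. The pumps that return calcium to the stores or out of the cell were close to 0. Atp2a2, the pump of the endoplasmic reticulum known as SERCA2, had 0.55 on replicate 1 and -0.05, 0.08 and 0.06 on replicates 2 to 4, and Atp2b2, a plasma membrane pump, had 0.22, -0.07, -0.25 and 0.25. Atp2a1 and Atp2a3 had no value.

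Phospholipases C were measured by 6 probes, all of them negative on replicate 1, against 49.7% of all probes. Plcb4, an isoform coupled to Gq proteins, had -0.45, 0.18, 0.28 and 0.15 on replicates 1 to 4 at probe 281 and -0.43, 0.07, 0.56 and 0.08 at probe 6480. The probes gave means of 0.20 ± 0.07 and 0.23 ± 0.28 (SD, n = 3), the closest match among the genes with several probes. Plcb1, the main isoform of the cortex, had -0.83, 0.27, 0.03 and 0.09, and only 4.21% of the probes of replicate 1 were as low or lower. Plcb3 was negative on every array, at -0.35, -0.28, -0.27 and -0.14, averaging -0.23 ± 0.08 on replicates 2 to 4 (adjusted p of 0.624 in limma). Plcg1, the isoform that growth factor receptors activate, had -0.06, -0.21, -0.74 and 0.16.

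Protein kinase C, which diacylglycerol activates, had 7 probes for 7 isoforms. None kept a single sign on replicates 2 to 4, against 33.5% of all probes, and the difference was not tested. Their means ran from -0.07 to 0.15. Prkca, a conventional isoform, had -0.05, 0.51, 0.06 and -0.11 on replicates 1 to 4, and Prkcb, another conventional isoform, had -0.16, 0.07, -0.10 and -0.19. Prkcd, an isoform known as a marker of the thalamus, had -0.36, 0.07, -0.63 and 0.39. Prkcq, known from T cells, had no value.

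All 4 adenylyl cyclases measured, the enzymes of cyclic AMP synthesis, had a positive mean, with a median of 0.24, against 47.4% of all probes with a mean above 0. Adcy9, an isoform inhibited by calcineurin, had -0.48, 0.55, 0.31 and 0.48 on replicates 1 to 4. Replicates 2 to 4 were all positive and replicate 1 was negative, with a mean of 0.45 ± 0.12 (SD, n = 3), 1.36-fold in size, a 95% interval of 0.09 to 0.80, an unadjusted p of 0.0217 and an adjusted p of 0.473 in limma. Adcy3, the isoform of olfactory neurons and primary cilia, had -0.29, 0.22, 0.13 and 0.48. Adcy8, which calmodulin stimulates, had -0.37, 0.12, 0.04 and 0.02. Adcy6, which calcium inhibits, had -0.26, 0.40, -0.36 and 0.57 and kept no common sign. The family was negative throughout on replicate 1, from -0.48 to -0.26 over its 4 probes, against 49.7% of all probes. Adcy7 had no value.

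The phosphodiesterases that break down cyclic nucleotides had 12 probes for 11 genes, 9 of them with a positive mean, against 47.4% of all probes, and a median of 0.10. Of the 12 probes, 3 were positive on every one of replicates 2 to 4, against 16.3% of all probes. Pde7a, which is specific for cyclic AMP, had -0.27, 0.53, 0.46 and 0.44 on replicates 1 to 4. Its mean of 0.48 ± 0.04 (SD, n = 3), 1.39-fold in size, had the smallest p of all signalling probes in limma, 0.0143 unadjusted and 0.473 adjusted, with a 95% interval of 0.14 to 0.82. Pde3b, which acts on cyclic AMP and is inhibited by cyclic GMP, had -0.53, 0.18, 0.63 and 0.27, a mean of 0.36 ± 0.24. Pde4d, a cyclic AMP-specific enzyme, had -0.50, 0.07, 0.65 and 0.31 at probe 1394 and -0.14, 0.41, 0.52 and -0.32 at probe 315, with means of 0.34 ± 0.29 and 0.20 ± 0.46. Both probes of Pde4d were negative on replicate 1 and positive on replicates 2 and 3. Pde4b, its relative, had -0.07, -0.43, -0.24 and 0.77.

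Pde4a, a further cyclic AMP-specific enzyme, had -0.31, -0.03, -0.28 and 0.33 on replicates 1 to 4, a mean of 0.01 ± 0.31 on replicates 2 to 4. The enzymes that calmodulin activates, which act on both cyclic nucleotides, shared no common sign. Pde1a had 0.57, 0.31, 0.47 and -0.28 on replicates 1 to 4, a mean of 0.17 ± 0.40 on replicates 2 to 4. Pde1c was negative on replicates 2 to 4, at -0.18, -0.19 and -0.15, and had 0.25 on replicate 1. Its mean of -0.18 ± 0.02 (SD, n = 3) had an adjusted p of 0.697 in limma. Pde1b, a calmodulin-activated enzyme abundant in the striatum, had -0.18, -0.31, -0.51 and 0.26 on replicates 1 to 4. Pde10a, the striatal enzyme of both cyclic nucleotides, had -0.49, 0.03, -0.16 and 0.10. Pde3a and Pde6a had no value.

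Protein kinase A, the main target of cyclic AMP, had 4 probes. None had a single sign on replicates 2 to 4, against 33.5% of all probes. Its catalytic subunits Prkaca and Prkacb had 0.23, -0.35, -0.47 and 0.03 and -0.57, 0.21, -0.06 and 0.32 on replicates 1 to 4, of opposite sign to each other on replicates 1 and 2. The regulatory subunits Prkar1b, which is largely neuronal, and Prkar2a had 0.37, -0.08, -0.72 and 0.02 and -0.50, -0.36, -0.60 and 0.31. All 4 probes of the kinase were negative on replicate 3, where the median over all probes fitted was -0.00. Of the 4, 3 had a negative mean, against 52.6% of all probes, with a family median of -0.24.

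The symbols also took in 4 proteins that belong to none of these enzymes. They were Prkcsh, the beta subunit of the glycoprotein-trimming glucosidase II, Prkag1, a subunit of the AMP-activated kinase, Pde6d, a carrier of prenylated proteins, and Pde4dip, a scaffold of the centrosome and Golgi. Prkcsh had -0.11, -0.41, -0.40 and 0.00 on replicates 1 to 4. Pde6d was negative on replicates 2 to 4, at -0.42, -0.20 and -0.05, with 0.23 on replicate 1, and the means of all 4 lay between -0.27 and 0.03.

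The phosphatases were measured through their catalytic subunits and through the proteins that direct them. Over 10 catalytic subunits the means ran from -0.26 to 0.40 with a median of -0.02, and over 12 probes of regulatory and scaffold subunits of phosphatases 1 and 2A from -0.59 to 0.38 with a median of 0.01. Of the catalytic subunits, 0 reached an unadjusted p under 0.05 in limma, and of the other 12 probes, 3 did, against 9.67% of all probes. The difference between these groups was not tested, and 1 of the 3, probe 3048 of Ppp2r5d, was no longer listed when probes were averaged by gene, at -0.11 with an unadjusted p of 0.507 in limma.

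Phosphatase 1 takes its substrates from its partners. Ppp1r15a, also known as GADD34, which brings the enzyme to the translation factor eIF2 alpha during cell stress, had -0.29, 0.19, 0.49 and 0.47 on replicates 1 to 4. It was positive on replicates 2 to 4, with a mean of 0.38 ± 0.17 (SD, n = 3), 1.30-fold in size, an unadjusted p of 0.0439 and an adjusted p of 0.504 in limma. Ppp1r13b, also known as ASPP1, which promotes the apoptotic function of p53, had 0.22, -0.45, -0.97 and -0.34. Replicates 2 to 4 were all negative, with a mean of -0.59 ± 0.34, 1.50-fold in size, a 95% interval of -1.03 to -0.15, an unadjusted p of 0.0176 and an adjusted p of 0.473 in limma. Ppp1r1b, or DARPP-32, the phosphatase 1 inhibitor of striatal neurons, had -0.67, -0.14, 0.33 and 0.03. Ppp1ca, a catalytic subunit, had 0.02, -0.08, -0.16 and -0.27, and Ppp1r17, a Purkinje cell inhibitor, had no value.

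Phosphatase 2A is a trimer of a scaffold, a catalytic and a variable B subunit. Its catalytic subunits were positive on every array: Ppp2ca had 0.10, 0.26, 0.25 and 0.49 on replicates 1 to 4, with a mean of 0.33 ± 0.13 (SD, n = 3) on replicates 2 to 4, and Ppp2cb had 0.15, 0.21, 0.19 and 0.15, with a mean of 0.18 ± 0.03. Their adjusted p values in limma were 0.529 and 0.683. A single sign on all 4 arrays as deposited was found for 15.5% of all probes. The scaffold subunit Ppp2r1a had 0.40, -0.39, -0.38 and 0.08, and the B subunit Ppp2r3c had 0.58, -0.06, 0.71 and 0.39. Ppp2r5d, a B subunit abundant in neurons, was measured by 3 probes that did not move together. Probe 3048 had 0.47, -0.60, -0.39 and -0.21, with a mean of -0.40 ± 0.19, an unadjusted p of 0.0410 and an adjusted p of 0.498 in limma. Probe 6717 had -0.20, -0.14, 0.27 and 0.66, with a mean of 0.26 ± 0.40, and probe 6718, of opposite sign to that, had a mean of -0.19 ± 0.19. Averaged over its probes, Ppp2r5d had -0.11.

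**Figure D3:**
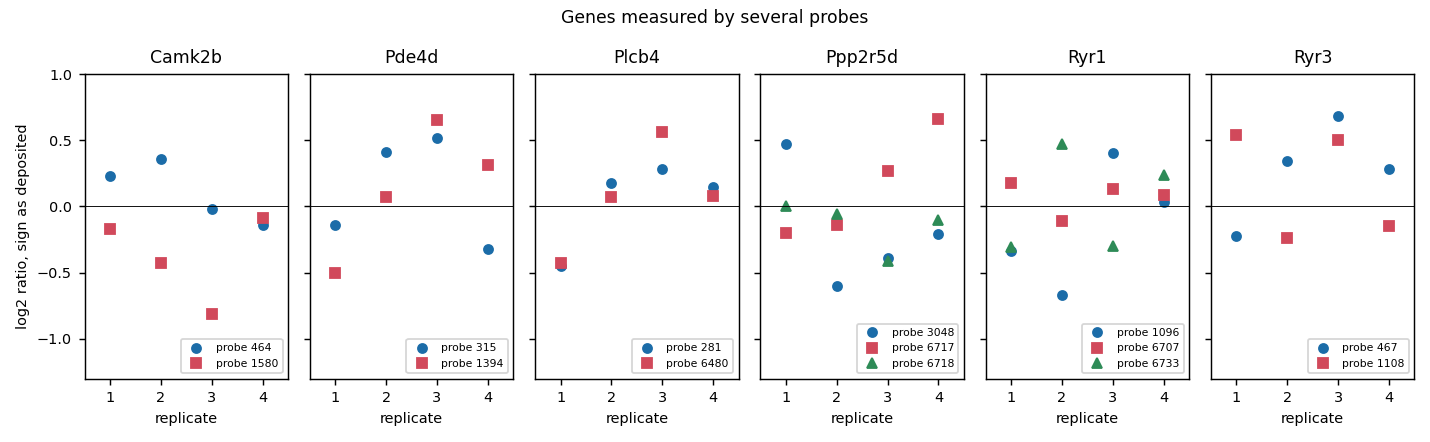
Log2 ratio (y axis, sign as deposited) on each array (x axis, replicate) for the 6 signalling genes measured by several probes, each probe in its own colour and shape. The probes of Plcb4 lie within 0.28 of each other on every array, whereas those of Ppp2r5d lie 0.54 to 0.87 apart.

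Calcineurin, the phosphatase that calcium and calmodulin activate, was measured through its catalytic subunits. Ppp3ca, the main brain form, had 0.28, 0.42, 0.87 and -0.10 on replicates 1 to 4, a mean of 0.40 ± 0.48 (SD, n = 3) on replicates 2 to 4 with an adjusted p of 0.596 in limma. Ppp3cb had 0.15 on replicate 1 and -0.04, -0.23 and -0.03 on replicates 2 to 4, and Ppp3cc, the form known from testis, had -0.11, -0.47, 0.51 and -0.22. Ppp4c, the catalytic subunit of phosphatase 4, was negative on every array, at -0.18, -0.22, -0.32 and -0.24, averaging -0.26 ± 0.05 on replicates 2 to 4, 1.20-fold in size (adjusted p of 0.582 in limma). Ppp5c had 0.22, -0.40, -0.46 and 0.12.

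The cyclic AMP response element, the site at which CREB brings protein kinase A and calmodulin kinase signals to genes, was searched for in the promoters of these genes. The search used the letters TGACGTCA, which read the same on both strands, in the 250 bases before each RefSeq start of assembly GRCm38.p6, and 49 of the 66 genes, with 79 promoters, were in the table used. The element was found in 2 of the 79 promoters (2.53%), against 1.55% of all 32851 promoters. The shorter site TGACG, on either strand and including the full element, was in 19 of the 79 (24.1%), against 17.8% of all. Counted by gene, the full element was in 2 of 49 genes (4.08%), against 1.77% of all 27025 genes. The shorter site was in 17 of the 49 (34.7%), against 19.8%. A gene with several promoters has more chances of a match, and the differences were not tested. The promoters with the full element belonged to Ppp1r15a and Ppp2ca. Both genes were positive on replicates 2 to 4, as were 20.5% of the signalling probes and 16.3% of all probes. On replicate 1, Ppp1r15a had -0.29 and Ppp2ca had 0.10. A link between the element and the sign was not tested, and a match is a description of letters and not of binding. The promoters are shown 5′ to 3′ with the element in capitals. That of Ppp1r15a is from chr7:45526269-45526518 on the minus strand, where the element spans bases 12 to 5 before the start. That of Ppp2ca is from chr11:52098574-52098823 on the plus strand, where the element spans bases 26 to 19 before the start.
Ppp1r15a: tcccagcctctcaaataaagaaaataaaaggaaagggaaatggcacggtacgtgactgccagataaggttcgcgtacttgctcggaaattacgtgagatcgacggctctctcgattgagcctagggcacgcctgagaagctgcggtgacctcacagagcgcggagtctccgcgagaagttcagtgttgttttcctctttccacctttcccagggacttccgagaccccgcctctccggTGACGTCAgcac
Ppp2ca: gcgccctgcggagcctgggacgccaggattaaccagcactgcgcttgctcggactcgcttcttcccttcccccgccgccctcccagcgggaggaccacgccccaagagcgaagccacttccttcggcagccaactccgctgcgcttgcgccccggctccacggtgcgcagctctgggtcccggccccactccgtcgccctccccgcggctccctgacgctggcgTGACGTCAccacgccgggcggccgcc

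Replicate 1 had its dyes assigned the other way round, and its null source is labelled day 14, against day 16 in its other labels. For many of these genes replicate 1 differed in sign from replicates 2 to 4. The parts of dye, labelled day and direction of the deposited ratio cannot be told apart. Of the 15 probes positive on all of replicates 2 to 4, 13 were negative on replicate 1, or 86.7%, against 52.3% of all probes positive on the 3 arrays. Of the 11 probes negative on all of replicates 2 to 4, 6 were positive on replicate 1, or 54.5%, against 55.3% of all probes. The difference from the background was not tested, and the arrays share the wild type pool. The 2 positive probes that were also positive on replicate 1 were those of Ppp2ca and Ppp2cb. Negative on all 4 arrays were probes of Camk2b, Plcb3, Ppp4c, Prkag1 and Ppp2r5d, the last with a value of about 0 on replicate 1 at probe 6718. A single sign on all 4 arrays as deposited was thus found for 7 of 73 probes, or 9.59%, against 15.5% of all probes. If replicate 1 has to be reversed in sign, none of these probes has a single sign. Their means over 4 arrays were then 0.22 for Ppp2ca, 0.10 for Ppp2cb, -0.29 for Camk2b and -0.09 for Plcb3. Ppp4c, Prkag1 and probe 6718 of Ppp2r5d had -0.15, -0.06 and -0.14.

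**Figure D4:**
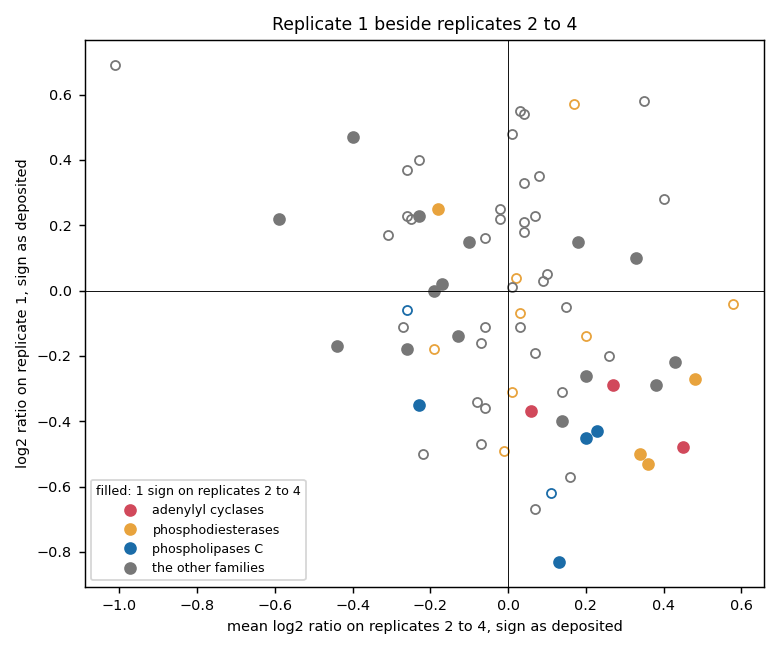
Log2 ratio on replicate 1 (y axis) against the mean on replicates 2 to 4 (x axis), both with the sign as deposited, for the 73 signalling probes. Filled points kept a single sign on replicates 2 to 4. Of the filled points right of 0, 13 of 15 lie below 0 on the y axis, against 52.3% of all probes positive on replicates 2 to 4. They include all filled points there of adenylyl cyclases, phosphodiesterases and phospholipases C, and points of other families.

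A ratio of channel 2 over channel 1 would require replicate 1 to be turned, and a ratio of null over wild type or its inverse would not. With replicate 1 turned, 9 of 73 probes had an unadjusted p under 0.05 in limma, or 12.3%, against 8.44% of all probes. Adcy9 then had a mean of 0.46 ± 0.10 (SD, n = 4), and an adjusted p of 0.474 in limma. Pde7a had 0.43 ± 0.11, and Pde3b and probe 1394 of Pde4d joined the list at 0.40 ± 0.21 and 0.38 ± 0.25, as did Itpr3 at -0.93 ± 1.00. With replicate 1 as deposited, 2 of 73 probes were listed, or 2.74%, against 7.12% of all probes. These were Ppp2r3c at 0.41 ± 0.34 and probe 1580 of Camk2b at -0.38 ± 0.32, each with an adjusted p of 0.663 in limma. Under either sign, 0 signalling probes had an adjusted p under 0.05, against 0% of all probes when replicate 1 was turned and 0.0352% when it was not.

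Other genes of the same routes were taken from 7 lists and read on replicates 2 to 4, where 0 of their probes passed the adjusted threshold of limma and between 0 and 4 in a list had an unadjusted p under 0.05, against 9.67% of all probes. A negative mean was found for 52.6% of all probes, against which the signs in each list are to be read. EF-hand calcium sensors and buffers, small proteins that bind calcium, had 13 of 18 probes negative, 4 of the 18 at an unadjusted p under 0.05 and a median of -0.14, with 22 of the 29 listed genes on the array. Of these, S100a6, a calcium-binding protein of dividing and glial cells, had 0.61, 0.63 and 0.41 on replicates 2 to 4 and -0.49 on replicate 1. Rcvrn, the sensor of photoreceptors, had -0.56, -0.78 and -0.23 and Calb1, a buffer of interneurons, had -1.23, -0.41 and -0.24. Their unadjusted p values were 0.00922, 0.0208 and 0.0339 in limma, with adjusted p values of 0.454, 0.473 and 0.484.

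Proteins that bind calmodulin and are phosphorylated by protein kinase C had 5 of 8 probes negative. Marcksl1, a membrane-bound substrate of protein kinase C, was negative on every array, at -0.58, -0.46, -0.85 and -0.26 on replicates 1 to 4, with an adjusted p of 0.473 in limma. Inositol phosphate and diacylglycerol turnover had 8 of 16 positive, and Pip5k1b, a kinase that makes the substrate of phospholipase C, had 0.26, 0.18, 1.79 and 1.32. Synthesis and targets of cyclic GMP had 5 of 9 negative, with Gucy2e, a retinal guanylyl cyclase, at 0.32, -0.64, -0.21 and -0.35. The medians of these 3 lists lay between -0.15 and 0.00, beside -0.02 over all probes. Partners and targets of protein kinase A had 6 of 10 positive, with the inhibitor Pkia at 0.44, 0.48, 0.00 and 0.68 and the anchoring protein Akap10 at -0.24, -0.22, -0.97 and -0.16. Regulators and targets of calcineurin had 6 of 10 positive with a median of 0.04. Proteins of calcium entry, exchange and storage had 8 of 14 positive with a median of 0.05, among them the cation channel Trpc5 at 0.69, -0.04, 0.66 and 0.65 and the calcium-binding Calu of the secretory pathway at -0.10, 0.25, 0.36 and 0.28.

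Markers of tissues that a neocortex dissection can hold also varied on replicates 2 to 4, and their part in the values above was not tested. Signs are to be read against the 52.6% of all probes with a negative mean. Meninges markers were negative at 8 of 8 probes, from 8 of 13 listed genes, with a median of -0.32. Vessel markers were negative at 10 of 14 probes (median -0.28, 14 of 16 genes) and thalamus markers at 7 of 8 (median -0.24, 8 of 10 genes). Markers of microglia and leukocytes were positive at 9 of 13 probes (median 0.31, 13 of 18 genes). Striatum markers were negative at 7 of 12 probes (median -0.10, 12 of 19 genes), and that list holds Ppp1r1b, Pde1b and Pde10a. Blood markers had 4 of 7 negative, choroid plexus markers 4 of 6 positive, and muscle markers, listed because Ryr1 and Ryr2 belong to muscle, 5 of 9 negative. At an unadjusted p under 0.05 in limma stood 5 of 14 vessel probes, 5 of 13 of microglia and leukocytes, 3 of 8 of meninges, 3 of 7 of blood, 3 of 6 of choroid plexus, 3 of 12 of striatum, 1 of 8 of thalamus and 0 of 9 of muscle. The share was 9.67% over all probes and 8.22% over the signalling probes, the differences were not tested, and 0 marker probes had an adjusted p under 0.05.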

How the data were processed

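The deposited values are the authors' log ratios per probe and array, taken as log2 because they are centred near 0 and reach sizes too large for log10 ratios, and their numerator, log base, normalization and background correction are not stated in the labels or the file. Column medians ran from -0.031 to 0.0044, and 0 columns of values were left unused. An item that could settle the direction is not reported here. Gene symbols came from GEO's platform annotation, and all 86 probes of the rule were found by gene ID in the RefSeq table of GRCm38.p6, which changed 0 symbols. Of the 86, 12 had no value on any array (13.95%, against 14.31% of all probes), for reasons not given, which left 9 genes without a value.

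Mean log ratios of replicates 2 to 4 were tested against 0 in limma 3.58.1 (lmFit, then eBayes; R 4.3.3) over all 5720 probes with a value on each, two-sided, with Benjamini-Hochberg adjustment over all of them. The test leaves out the spread between controls. Arrays limit the precision by their number. On simulated data for this comparison (5720 probes, 10 rounds of 200 changed probes), the test found 50% of the 2-fold and 96.2% of the 4-fold changes, and 5.39% of its calls were on probes left unchanged. The simulated errors were normal and independent, each change was equal on every array, and no effect of dye or pool was added. These shares may therefore not hold for the arrays.

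Members, families and lists were chosen with earlier results of these data known. Named were members with an unadjusted p under 0.05, the smallest p per family and sign, genes with several probes, calmodulin, means beyond 1 and striatal markers, and 32 further genes to complete their families after their values were seen. From the other lists, up to 3 genes with the smallest p were named. The 7 lists of other pathway genes and 8 of cell markers hold textbook genes. Motif windows were the 250 bases before each start.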

Additional observations from a re-analysis of the deposited data

Results flagged for a closer look

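Over 73 signalling probes with a value on all 4 arrays, 1 had a single array apart from the others under both signs of replicate 1. Pde7b had 1.72 on replicate 3, with -0.04 on replicate 1, 0.10 on replicate 2 and -0.07 on replicate 4. On replicate 3, 99.1% of all probes were at or below that value. A single test of this kind flags about 1 in 20 groups by chance. The rule asked for the same array under both signs of replicate 1, and its own chance rate was not worked out. That array also had the widest spread over all probes.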

How the results depend on the processing

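The number of signalling probes past an adjusted p of 0.05 was 0 under every alternative run, including array weights, a robust variance prior and a threshold of 0.1. The number at an unadjusted p under 0.05 (6) made up 8.22%, against 9.67% of all probes, and both shares moved. It was 2 with 4 arrays and replicate 1 as deposited (2.74%, against 7.12% of all probes) and 9 with replicate 1 turned (12.3%, against 8.44%). It was 9 with array weights (12.3%, against 18.7%), 8 on a common scale (11%, against 11%), 4 with probes averaged by gene (6.15%, against 9.71%), and 0 to 5 without 1 of replicates 2 to 4 (0 to 6.85%, against 4.09 to 10.9%). The number with a single sign (26) was 7 with 4 arrays as deposited (9.59%, against 15.5% of all probes), 19 with replicate 1 turned (26%, against 18.1%), and 39 to 46 without 1 replicate (53.4 to 63%, against 50.2 to 60.1%), where fewer arrays have to share a sign. The median of the means stayed between 0.00 and 0.05. Of 61 named probes, 21 changed sign under some alternative. With replicate 1 turned these were Atp2a2 (-0.11), Camk2b probe 464 (-0.01), Pde10a (0.11), Pde1a (-0.02), Prkcd (0.05), Ryr1 probes 1096 (0.02) and 6707 (-0.02) and Ryr3 probe 1108 (-0.11). With replicate 1 as deposited they were Adcy8 (-0.05), Atp2b2 (0.04), Pde4a (-0.07), Pde4dip (-0.00), Plcb1 (-0.11), Ppp1r1b (-0.11) and Prkacb (-0.03). On a common scale they were Atp2b2 (0.03), Pde10a (0.02), Prkcd (0.04) and Ryr3 probe 1108 (-0.01), and averaged by gene Camk2b (-0.19), Ppp2r5d probe 6717 (-0.11) and Ryr1 probe 1096 (0.03). Without 1 replicate, means ranged from -0.16 to 0.09 for Atp2b2, -0.08 to 0.17 for Camk2b probe 464, -0.09 to 0.35 for Camk4, -0.07 to 0.06 for Pde10a, -0.16 to 0.15 for Pde4a, -0.33 to 0.27 for Pde4b, -0.04 to 0.14 for Pde4dip, -0.06 to 0.18 for Ppp1r1b, -0.34 to 0.15 for Ppp3cc, -0.02 to 0.28 for Prkca, -0.28 to 0.23 for Prkcd, -0.32 to 0.21, -0.01 to 0.11 and -0.03 to 0.36 for Ryr1 probes 1096, 6707 and 6733, and -0.19 to 0.18 for Ryr3 probe 1108. Apart from the lower number of arrays, the cause was not tested. Centring, allowing a missing value and leaving out probes beyond 4 in size changed 0 signs. No paired analysis was possible because the ratios are already against a single pool. Scanner intensities were not used here, so a filter on dim probes was not run.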

Other observations

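Across the 73 signalling probes, Pearson's r between arrays was 0.44 for replicates 2 and 3 and 0.03 for replicates 2 and 4, beside 0.24 and 0.23 over 5687 probes. For replicates 3 and 4 it was -0.00, as over all probes. For replicate 1 it was -0.30 with replicate 2, -0.15 with replicate 3 and -0.31 with replicate 4, beside -0.02, 0.08 and -0.12 over all probes. These are correlations across probes of arrays that share a pool, and probes are not independent replicates.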
